A study of Rattus norvegicus with 32 samples.

Results

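The inflammatory CC chemokines described here were Ccl2, Ccl3, Ccl4, Ccl5, Ccl7, Ccl20 and Ccl24, together with Cx3cl1, which belongs to the CX3C class and not to the CC class. They were chosen by gene symbol, and all 8 were present among the 32623 genes of each library. Their Ensembl identifiers are ENSRNOG00000007159 (Ccl2), ENSRNOG00000011205 (Ccl3), ENSRNOG00000011406 (Ccl4), ENSRNOG00000010906 (Ccl5), ENSRNOG00000000239 (Ccl7), ENSRNOG00000015992 (Ccl20), ENSRNOG00000031162 (Ccl24) and ENSRNOG00000016326 (Cx3cl1). RNA-sequencing was performed on rat liver sinusoidal endothelial cells (LSECs), the fenestrated endothelium of the liver, in 32 libraries. In the carbon tetrachloride (CCl4) model, male Wistar Han rats inhaled CCl4, a hepatotoxin that scars the liver, for 2 weeks (acute, n = 5), 6 weeks (fibrosis, n = 5) or 12 to 14 weeks (cirrhosis, n = 6), and 6 untreated rats served as healthy animals. The study's methods give phenobarbital in the drinking water for this model and do not say whether the healthy rats received it. In the thioacetamide (TAA) experiment, 5 libraries are labelled control and 5 are labelled TAA control. The labels name Wistar Han rats for these as well, whereas the study's methods name Sprague-Dawley rats given TAA or saline, and because the sources do not settle which labelled group received TAA, the comparison was given no direction of treatment. Per the same methods, TAA was injected intraperitoneally for 12 weeks. In both models LSECs were isolated several days after the last toxicant dose, to lessen the acute inflammatory gene response. Ages were not given in the sources used here. All LSECs were separated from perfused and digested livers on an iodixanol gradient, with no sorting on a surface marker named for the sequenced rat cells, so that each library is a cell preparation that can hold other liver cells.

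Chemokines are small secreted proteins that guide leukocytes along a gradient by binding G protein-coupled receptors. The inflammatory members are induced in many cell types by cytokines such as TNF and IL-1, largely through NF-kappaB and AP-1. In the injured liver CCL2 and CCL7 recruit monocytes through CCR2, CCL3, CCL4 and CCL5 act on macrophages and lymphocytes, CCL3 and CCL5 in part through CCR1, CCL20 attracts CCR6-positive lymphocytes and dendritic cells, and CCL24 (eotaxin-2) attracts eosinophils through CCR3. CX3CL1 (fractalkine) is anchored in the endothelial membrane, where it binds CX3CR1-positive monocytes and lymphocytes, and is released from it by the proteases ADAM10 and ADAM17.

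Promoter sequences from RefSeq (rat assembly GRCr8) were matched for 4 of the 8 genes, Ccl7, Ccl20, Ccl24 and Cx3cl1. The 250 bases before the start site are shown for 2 genes whose levels were higher in acute injury and fibrosis (Ccl7 and Ccl20) and for the gene whose level was lowest relative to healthy LSECs at those stages (Ccl24), all on the plus strand and written 5′ to 3′. Capitals mark the motifs that were searched for, which were the AP-1 motif TGANTCA and the NF-kappaB consensus on both strands and the TATA sequence TATAAA on the plus strand.
Ccl7 (chr10:67513845-67514094): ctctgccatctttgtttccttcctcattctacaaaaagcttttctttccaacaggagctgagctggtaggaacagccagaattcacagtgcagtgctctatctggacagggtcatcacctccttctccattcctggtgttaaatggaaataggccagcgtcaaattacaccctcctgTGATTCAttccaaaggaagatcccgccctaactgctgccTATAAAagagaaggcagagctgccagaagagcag
Ccl20 (chr9:91836909-91837158): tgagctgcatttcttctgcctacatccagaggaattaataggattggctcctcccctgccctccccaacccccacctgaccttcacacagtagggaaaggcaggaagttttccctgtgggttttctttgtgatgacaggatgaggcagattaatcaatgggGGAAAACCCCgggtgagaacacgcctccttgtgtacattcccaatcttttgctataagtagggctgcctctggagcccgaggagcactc
Ccl24 (chr12:26737173-26737422): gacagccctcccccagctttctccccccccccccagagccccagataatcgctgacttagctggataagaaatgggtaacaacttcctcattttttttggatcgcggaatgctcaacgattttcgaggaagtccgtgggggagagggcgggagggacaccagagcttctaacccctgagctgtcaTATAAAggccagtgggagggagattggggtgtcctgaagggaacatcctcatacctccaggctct
The Ccl7 window held an AP-1 match that began 73 bases before the start and a TATAAA that began 34 bases before it. An NF-kappaB match, read on the minus strand, began 89 bases before the start of Ccl20. In Ccl24 the only match was a TATAAA that began 65 bases before the start. The Cx3cl1 window, on the minus strand of the assembly, held a TATAAA 78 bases before the start. Of all 33469 promoter windows of this length, 6.34% held the AP-1 motif, 3.54% the NF-kappaB consensus and 8.06% TATAAA. These matches describe letters in the sequence and do not show that a factor was bound.

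Totals ranged from 25646531 to 46464289 expected counts per library. Levels are given as CPM, read counts relative to the size of the library, scaled over all 32 libraries. CPM is not corrected for transcript length, so levels were compared between groups and not between genes. LSEC markers were present in all groups, but their summed level was 12465 to 21608 CPM in healthy, 2171 to 2628 in acute, 1486 to 2362 in fibrosis and 12277 to 15905 in cirrhosis libraries. In acute and fibrosis libraries the label of LSECs was therefore met by markers at a lower level, with 8 and 9 of the 10 markers lower than in healthy LSECs. No marker of the list was at 0 in every library of a group. General endothelial markers went the same way, with 6 of 7 tested lower in acute injury and 6 of 7 in fibrosis and none higher. Their median log2 fold change was -3.00 and -3.40. Over all genes tested, 38.3% and 35.4% were lower. In bulk RNA, fewer cells of a type and less RNA per cell cannot be told apart. Nothing in the labels names a batch, and p-values set a group difference against the spread between libraries, which come from cell preparations of rats.

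Each comparison was a limma-voom fit of the 2 groups concerned. A gene was called at p under 0.05 with a fold-change above 1.5, the thresholds of the study, and adjusted p-values (Benjamini-Hochberg, over all genes tested) are given beside it for single genes. Counts of genes called, in the members and in other lists, use the unadjusted p unless stated. Many genes were called in most comparisons. Against healthy LSECs, 7 of the 7 members tested were called in acute injury (2 higher, 5 lower), where 74.1% (35.8% higher, 38.3% lower) of all 14317 genes tested were called, and 8 of 8 in fibrosis (4 higher, 4 lower), where 71.2% (35.8%, 35.4%) of 14524 were. In cirrhosis 5 of 7 were called (3 higher, 2 lower), beside 54.5% (28.8%, 25.7%) of 14789 genes. Cirrhosis differed from fibrosis in 7 of 8 members (4 higher, 3 lower), with 64.2% (34.5%, 29.7%) of all genes called, and from acute injury in 8 of 8 (5 higher, 3 lower), with 69.7% (37.8%, 32%) called. Between fibrosis and acute injury 1 of 8 members was called, higher in fibrosis, beside 15.7% of all genes (14.3% higher, 1.39% lower). The groups of the TAA experiment differed in 7 of 7 members (4 higher and 3 lower in the libraries labelled TAA control), beside 29.4% (13.5%, 15.9%) of all genes. Since most genes were called in the comparisons with healthy LSECs, these counts say little about the members, which are therefore described by their own values and directions. Libraries of the 2 groups did not overlap for 4 of the 7 members tested in acute injury (60.4% of all genes), 4 of 8 in fibrosis (59%) and 1 of 7 in cirrhosis (27.2%) against healthy LSECs, for 4 of 8 between cirrhosis and fibrosis (63.3%), 6 of 8 between cirrhosis and acute injury (65.9%) and 1 of 8 between fibrosis and acute injury (14%).

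Ccl2 and Ccl7, the monocyte attractants, rose at the early stages. Ccl2 was at 88.5 to 703 CPM in healthy LSECs (median 158, n = 6). In acute injury the 5 libraries were at 2345, 1327, 2502, 3826 and 2963 CPM, and in fibrosis at 2331, 2463, 2298.5, 2707 and 2576 CPM. Each acute and fibrosis library was above each healthy library, including healthy replicate 3, whose 703 CPM stood apart from the next highest value of 185. The log2 fold change against healthy was 3.82 ± 0.49 (SE) in acute injury (adjusted p = 1.68e-05) and 3.86 ± 0.45 in fibrosis (adjusted p = 9.17e-06), which is 14.1-fold and 14.5-fold. In cirrhosis Ccl2 was at 244 to 752 CPM (median 393, n = 6), below all acute and fibrosis libraries and overlapping the healthy ones. It was 6.07-fold lower in cirrhosis than in fibrosis (log2 fold change -2.60 ± 0.27, adjusted p = 2.43e-06). The rise over healthy in cirrhosis, 1.20 ± 0.46 on the log2 scale (adjusted p = 0.0404), was not called without healthy replicate 2 (1.0, adjusted p = 0.0924) or 5 (1.0, adjusted p = 0.0796), by edgeR (0.85, adjusted p = 0.160) or by DESeq2 (0.88, adjusted p = 0.112).

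Ccl7 followed. Healthy libraries held 10.1 to 31.8 CPM (median 19.4). The acute libraries were at 200, 120, 286, 453 and 403 CPM and the fibrosis libraries at 254, 266, 292, 399 and 410 CPM, with no overlap with healthy. Against healthy, the log2 fold change was 3.78 ± 0.37 in acute injury (adjusted p = 1.80e-06) and 4.09 ± 0.27 in fibrosis (adjusted p = 7.59e-08). Cirrhosis libraries lay between, at 29.6 to 101 CPM (median 71.1). Their lowest value was within the healthy range and all were below the acute and fibrosis libraries. Ccl7 was 3.18-fold higher in cirrhosis than in healthy LSECs (log2 fold change 1.67 ± 0.31, adjusted p = 0.000819), and that call held in every fit with 1 library left out, with values of 1.47 to 1.89. Neither Ccl2 nor Ccl7 was called between fibrosis and acute injury, with log2 differences of 0.09 (95% interval -0.40 to 0.59) and 0.35 (-0.37 to 1.08).

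**Figure D1:**
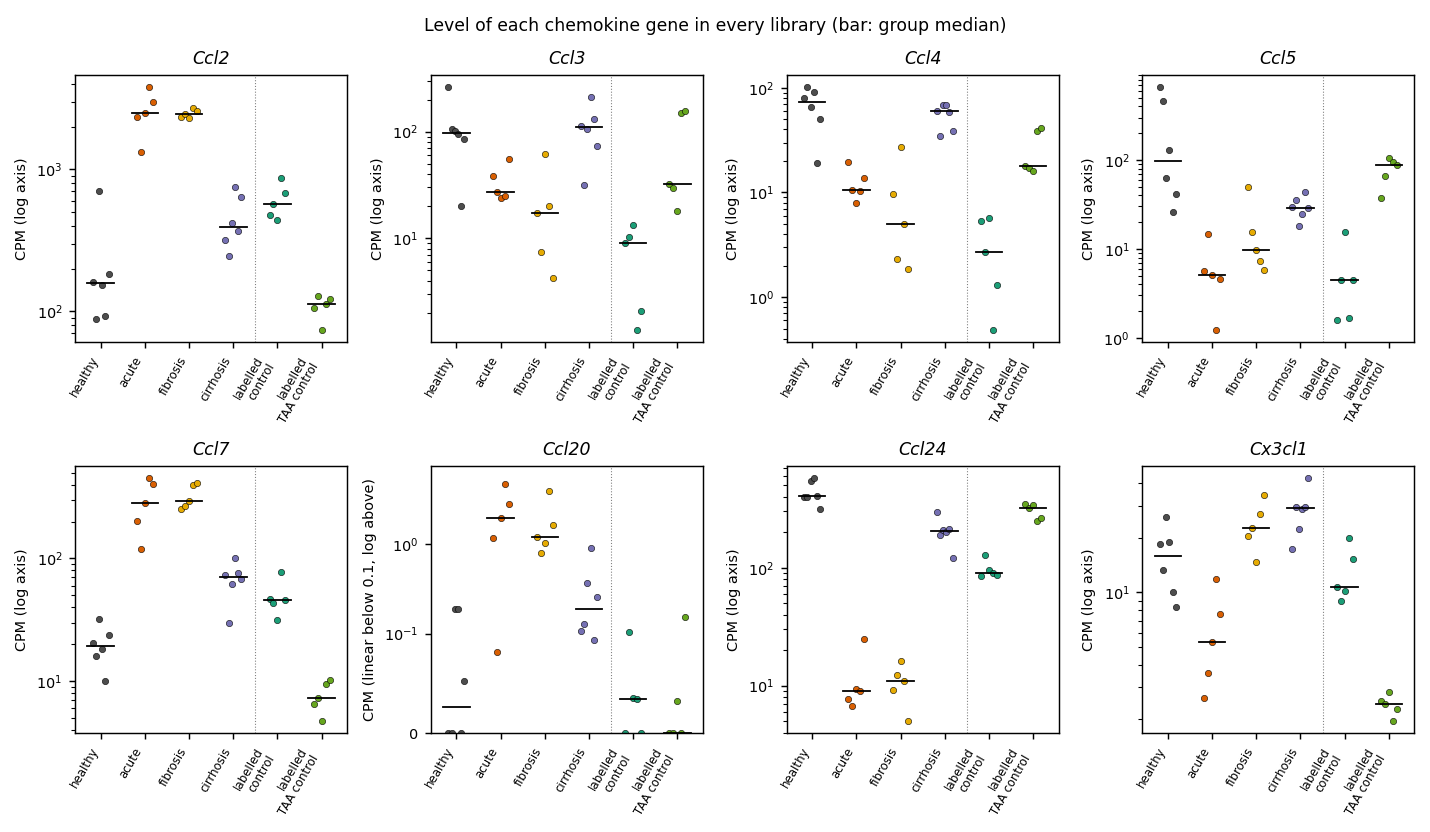
Level of each of the 8 chemokine genes in every library, in CPM on a log axis (for Ccl20 linear below 0.1 CPM), with 1 point per library, a bar at the group median and a dotted line between the CCl4 model and the TAA experiment. Ccl2 sat at 1327 to 3826 CPM in acute and 2298.5 to 2707 CPM in fibrosis libraries, above all healthy libraries, whereas Ccl24 sat at 6.69 to 25.1 and 5.01 to 16.2 CPM, below all of them.

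Ccl20, the ligand of CCR6, was detected at low counts. Healthy libraries held 0 to 5 expected counts each, 12 in all, and 3 of the 6 held 0. The acute libraries held 43, 3, 70, 201 and 86 counts (1.18, 0.0815, 1.94, 4.68 and 2.78 CPM) and the fibrosis libraries 42, 25, 31, 136 and 55 (1.21, 0.786, 1.04, 3.92 and 1.63 CPM). All fibrosis libraries were above all healthy libraries, and the acute libraries were as well apart from replicate 2, whose 3 counts were within the healthy range. In fibrosis the fitted log2 fold change was 4.93 ± 0.75 (adjusted p = 8.24e-05). This fitted value depends on what is added to counts of 0, and the ratio of the mean CPM was 24.0. The count filter removed Ccl20 from the comparison of acute with healthy LSECs. An exact permutation test of the mean log2(CPM + 0.5), two-sided, gave a difference of 1.89 (p = 0.00649, adjusted p = 0.0139 over the 56 such tests of members), and without acute replicate 2 the gene passed the filter with a log2 fold change of 5.60 (adjusted p = 6.38e-05). Cirrhosis libraries held 4 to 40 counts (0.0931 to 0.910 CPM, median 0.190), overlapping both healthy and fibrosis libraries. Ccl20 was lower in cirrhosis than in fibrosis (log2 fold change -2.72 ± 0.59, adjusted p = 0.00110). The lower level in cirrhosis than in acute injury (-2.47 ± 1.04, adjusted p = 0.0428) was -3.41 without acute replicate 2 and was not called without cirrhosis replicate 1, 2, 5 or 6 or acute replicate 3, 4 or 8 (-2.49 to -1.94).

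Ccl3 and Ccl4, the macrophage inflammatory proteins, fell at the stages at which Ccl2 and Ccl7 rose. Ccl3 was at 19.99 to 264 CPM in healthy LSECs (median 97.8). The acute libraries were at 38.2, 27.3, 23.6, 25.2 and 55.9 CPM and the fibrosis libraries at 17.2, 7.42, 61.1, 19.98 and 4.21 CPM. Both groups overlapped the healthy range, through the healthy library at 19.99 CPM. Ccl3 was 2.75-fold lower in acute injury (log2 fold change -1.46 ± 0.52, adjusted p = 0.0222) and 5.98-fold lower in fibrosis (-2.58 ± 0.71, adjusted p = 0.00588). The first of these calls was lost when library sizes were not scaled by TMM (-1.05, adjusted p = 0.0765). In cirrhosis Ccl3 was at 32.0 to 213 CPM (median 109), 6.44-fold higher than in fibrosis (2.69 ± 0.63, adjusted p = 0.00188). Against healthy the difference in cirrhosis was 0.04 on the log2 scale, with a 95% interval of -1.14 to 1.22. Ccl3 was the only member with many expected counts that were not whole numbers, in 31 of the 32 libraries, so part of its reads were shared out by RSEM between similar genes.

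Ccl4 was at 19.1 to 103 CPM in healthy LSECs (median 72.9). The acute libraries were at 19.4, 10.5, 7.95, 10.3 and 13.7 CPM and the fibrosis libraries at 9.70, 2.33, 27.1, 5.02 and 1.87 CPM. Acute replicate 1 and fibrosis replicate 15 were above the lowest healthy library, and the other libraries of these groups were below all healthy ones. The log2 fold change was -2.36 ± 0.43 in acute injury (adjusted p = 0.000299) and -3.40 ± 0.66 in fibrosis (adjusted p = 0.000524). Cirrhosis libraries, at 35.0 to 69.2 CPM (median 59.6), were all above the fibrosis libraries, by 9.19-fold (3.20 ± 0.52, adjusted p = 0.000123). Against healthy the difference was -0.27 (95% interval -1.07 to 0.53) and was not called, but without healthy replicate 5, the lowest healthy library, it was -0.61 (adjusted p = 0.0468). Between fibrosis and acute injury neither gene was called (Ccl3 -1.08, adjusted p = 0.185 and Ccl4 -1.005, adjusted p = 0.237). Without fibrosis replicate 15, which held the highest Ccl3 and Ccl4 of its group, these were -1.56 (adjusted p = 0.0468) and -1.53 (adjusted p = 0.0512).

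Macrophage markers moved with Ccl3 and Ccl4. All 12 of the Kupffer cell and macrophage markers tested were lower than in healthy LSECs in acute injury (11 after adjustment) and in fibrosis, and all 13 tested were higher in cirrhosis than in fibrosis. Their summed level was 581 to 4555 CPM in healthy, 106 to 267 in acute, 44.4 to 266 in fibrosis and 1417 to 4171 in cirrhosis libraries. In the same 3 comparisons, 38.3% and 35.4% of all genes tested were lower and 34.5% were higher. LSEC markers moved likewise, with 8 and 9 of 10 lower and 9 of 10 higher, so this direction was not particular to macrophage markers. Timd4, a marker of resident Kupffer cells, was at 0 in every acute and every fibrosis library. Of the 13 markers found, 12 passed the count filter in the comparisons of these groups with healthy LSECs. No difference of Timd4 from healthy is given here, so its zeros alone do not show a loss of these cells. Whether Kupffer cells and macrophages account for the levels of Ccl3 and Ccl4 was not tested.

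Ccl5, which attracts T cells and NK cells, fell against healthy at all stages. It was at 26.1 to 668 CPM in healthy LSECs (median 96.4), the widest spread of the members in that group apart from Ccl20. The acute libraries were at 5.60, 14.7, 5.07, 1.23 and 4.58 CPM, all below healthy. The fibrosis libraries were at 49.3, 15.6, 9.82, 7.27 and 5.72 CPM, of which replicate 12 was within the healthy range. The log2 fold change was -4.68 ± 1.02 in acute injury (adjusted p = 0.00113) and -3.20 ± 0.92 in fibrosis (adjusted p = 0.00742). In cirrhosis Ccl5 stayed at 18.1 to 43.7 CPM (median 29.2), overlapping the lower healthy libraries, with a log2 fold change of -2.12 ± 0.71 (adjusted p = 0.0211). The T and NK cell markers had a summed level of 60.2 to 661 CPM in healthy, 6.58 to 19.7 in acute, 8.42 to 70.7 in fibrosis and 111 to 264 in cirrhosis libraries. Of these markers 8 of 10 tested fell in acute injury, 7 of 11 in fibrosis and 4 of 14 in cirrhosis, where 4 others rose, and none was at 0 in every library of a group. After adjustment, 3 of the falls and 1 of the rises in cirrhosis were still called. Over all genes tested, 38.3%, 35.4% and 25.7% fell at these stages and 28.8% rose in cirrhosis. The part of T and NK cells in the level of Ccl5 was not tested. The higher Ccl5 in cirrhosis than in fibrosis (1.14 ± 0.45, adjusted p = 0.0339) was not called without fibrosis replicate 15, 16 or 17 (0.84 to 1.05), nor by edgeR (0.71, adjusted p = 0.210) or DESeq2 (0.75, adjusted p = 0.136), and the exact permutation test gave p = 0.0584. Between fibrosis and acute injury Ccl5 was 1.53 ± 0.73 on the log2 scale and not called (adjusted p = 0.160), and it was called at p under 0.05, but not after adjustment, without acute replicate 2 (1.95) or fibrosis replicate 16 (1.73) or 17 (1.84).

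Ccl24, the eosinophil attractant, had the largest difference in acute injury of the 7 members that passed the count filter, which Ccl20 did not. It was at 317 to 577 CPM in healthy LSECs (median 405). The acute libraries were at 7.71, 6.69, 9.28, 9.05 and 25.1 CPM and the fibrosis libraries at 9.15, 12.4, 16.2, 10.9 and 5.01 CPM. No library of either group came near the healthy range. Ccl24 was 43.2-fold lower in acute injury (log2 fold change -5.43 ± 0.30, adjusted p = 1.61e-08) and 42.6-fold lower in fibrosis (-5.41 ± 0.27, adjusted p = 1.11e-08). Cirrhosis libraries were at 121 to 296 CPM (median 205), below all healthy and above all acute and fibrosis libraries. The log2 fold change of cirrhosis was -1.21 ± 0.22 against healthy (adjusted p = 0.000701) and 4.26 ± 0.28 against fibrosis (adjusted p = 4.93e-08). It was the only tested member whose cirrhosis libraries did not overlap the healthy ones. The summed levels of the LSEC markers and macrophage markers given above were likewise lower in acute and fibrosis than in healthy and cirrhosis libraries. So was that of the dissociation stress genes given below. The part of these lists in the level of Ccl24 was not tested.

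Cx3cl1, the membrane-anchored ligand, was the only member called between fibrosis and acute injury. Healthy libraries were at 8.30 to 25.9 CPM (median 15.96). The acute libraries were at 2.61, 3.62, 5.32, 11.8 and 7.59 CPM, of which replicate 4 was within the healthy range. The fibrosis libraries were at 20.6, 22.7, 14.7, 26.9 and 34.5 CPM, all above the acute libraries. Cx3cl1 fell by 1.42 ± 0.42 on the log2 scale from healthy to acute (adjusted p = 0.00737) and was 4.48-fold higher in fibrosis than in acute injury (2.16 ± 0.37, adjusted p = 0.00594). In cirrhosis it was at 17.4 to 42.8 CPM (median 29.2), above all acute libraries and overlapping the healthy and fibrosis ones. The log2 fold change of cirrhosis against healthy was 0.83 ± 0.30 (adjusted p = 0.0309), and it was not called when libraries were weighted (0.53, adjusted p = 0.0875). In fibrosis the difference from healthy was 0.69 ± 0.31 (95% interval 0.01 to 1.37), called before but not after adjustment (adjusted p = 0.0630). That call was lost without healthy replicate 2, 5 or 6 or fibrosis replicate 12, 13, 16 or 17 (0.44 to 0.74), and the exact permutation test gave p = 0.0887. Between cirrhosis and fibrosis the difference was 0.19 (95% interval -0.34 to 0.72). Markers of other cells moved with Cx3cl1 between acute injury and fibrosis. Stellate cell and fibroblast markers were higher in fibrosis in 6 of 8 tested (median log2 fold change 2.78), among them Col1a1 (4.98 ± 0.76, adjusted p = 0.00440), and hepatocyte markers in 10 of 10 (median 3.05), beside a median of 0.0040 over all genes tested. Dissociation stress genes were higher in 7 of 15, and 14.3% of all genes tested were higher. No stellate or hepatocyte marker was at 0 in every library of a group, and the part of these cells in the level of Cx3cl1 was not tested.

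**Figure D2:**
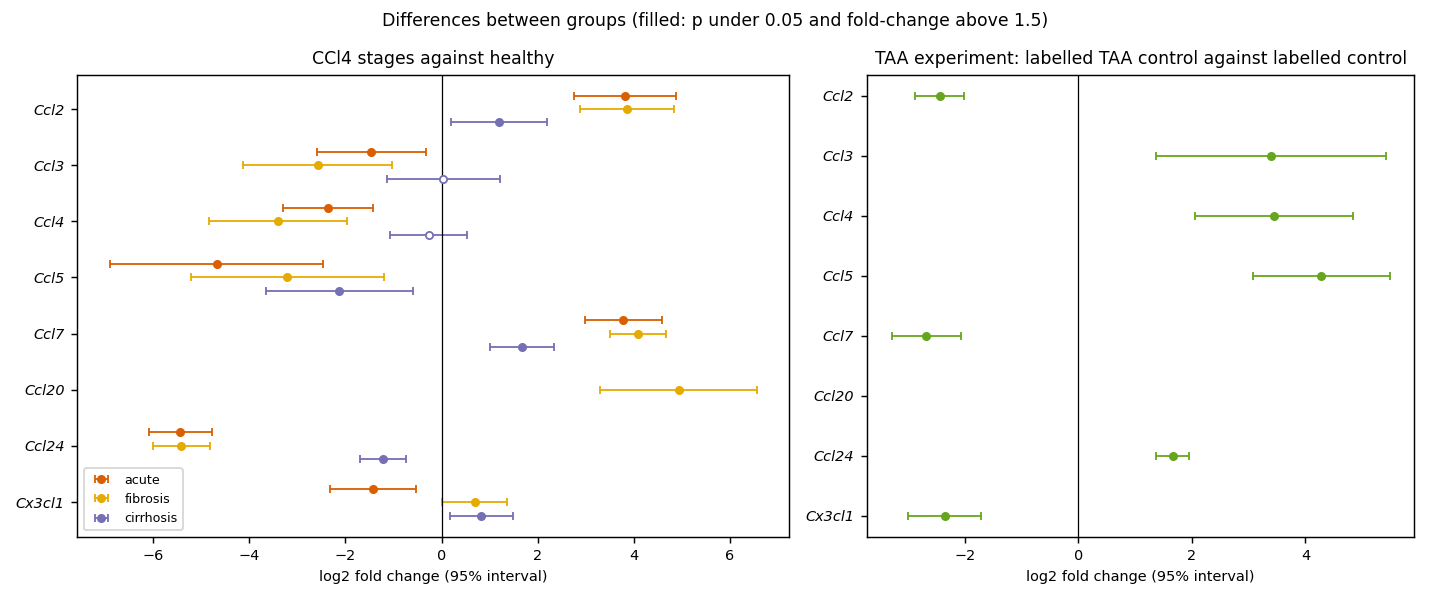
Log2 fold change of each chemokine gene with its 95% interval from limma-voom, for the 3 CCl4 stages against healthy LSECs (left) and for the libraries labelled TAA control against those labelled control (right). Filled points were called, open points were not, and Ccl20 is shown only for fibrosis because the count filter removed it from the other comparisons plotted. The acute and fibrosis points of Ccl2 (3.82 and 3.86) and Ccl24 (-5.43 and -5.41) lie farther from 0 than the cirrhosis points (1.20 and -1.21).

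From acute injury to cirrhosis, Ccl2 and Ccl7 were lower by log2 fold changes of -2.59 and -2.09, and Ccl3, Ccl4, Ccl5, Ccl24 and Cx3cl1 were higher by 1.54, 2.12, 2.60, 4.26 and 2.28 (adjusted p at most 0.00362). Libraries of these 2 groups did not overlap for these members apart from Ccl3. Ccl7 was lower in cirrhosis than in fibrosis as well (-2.36 ± 0.28, adjusted p = 7.04e-06).

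In the TAA experiment the 2 labelled groups did not overlap for any of the 7 members tested, beside 35.4% of all genes without overlap. Ccl2 was at 476, 567, 443, 864 and 686 CPM in the libraries labelled control and at 106, 128, 74.4, 113 and 123 CPM in those labelled TAA control. It was 5.44-fold lower in the latter (log2 fold change -2.44 ± 0.20, adjusted p = 1.37e-05). Ccl7 went in the same direction, from 46.6, 43.6, 31.6, 76.9 and 45.7 CPM to 6.51, 7.24, 4.72, 9.46 and 10.1 CPM (-2.68 ± 0.28, adjusted p = 4.77e-05). Cx3cl1 was at 10.8, 8.98, 10.1, 20.1 and 15.2 CPM in the libraries labelled control and at 2.53, 2.41, 2.82, 1.95 and 2.29 CPM in those labelled TAA control (-2.36 ± 0.29, adjusted p = 0.000139).

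Ccl3, Ccl4, Ccl5 and Ccl24 were higher in the libraries labelled TAA control. Ccl3 was at 9.09, 10.3, 13.2, 1.39 and 2.08 CPM in the libraries labelled control and at 32.0, 29.5, 18.2, 148 and 156 CPM in the others (3.39 ± 0.92, adjusted p = 0.0108). The highest pair are replicates 14 and 15. These libraries differed from each other by far less than any other pair of that group (chi-square of their counts divided by its degrees of freedom 3.05, against 27.6 or more), but by more than sampling noise. That does not settle whether they came from the same rat or preparation. They were kept as 2 libraries, and the p-values given for this experiment treat them as independent unless stated. With their counts summed into 1 library the log2 fold change of Ccl3 was 3.05 (adjusted p = 0.0164), and all 7 members were still called. Ccl4 was at 5.32, 2.69, 5.66, 0.487 and 1.29 against 17.8, 17.05, 16.1, 38.6 and 41.2 CPM (3.45 ± 0.63, adjusted p = 0.00123). Ccl5 was at 1.59, 4.51, 15.3, 1.67 and 4.43 against 37.8, 65.3, 107, 95.3 and 87.8 CPM, the largest difference of the 7 members tested in this experiment (4.28 ± 0.54, adjusted p = 0.000158). Ccl24 was at 84.9, 129, 96.0, 90.6 and 86.1 against 345, 323, 339, 250 and 264 CPM (1.66 ± 0.13, adjusted p = 1.42e-05). Ccl20 held 0 to 4 counts in each of the 10 libraries, too few for a comparison.

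Marker lists differed between these labelled groups as well. Over all genes tested, 13.5% were higher and 15.9% lower in the libraries labelled TAA control. All 10 T and NK cell markers tested were higher in the libraries labelled TAA control (8 after adjustment), with summed levels of 101 to 231 against 4.91 to 40.1 CPM. Of the 12 macrophage markers tested 4 were higher (2 after adjustment), with summed levels of 125 to 657 against 37.0 to 259 CPM. No macrophage marker was free of overlap between the labelled groups. Stellate cell and fibroblast markers were higher in the libraries labelled control, at 2039 to 5086 against 334 to 524 CPM, with 7 of 9 tested called. Hepatocyte markers were at 2347 to 5907 CPM in the libraries labelled control and 683 to 1561 CPM in the others, with 8 of 10 lower (7 after adjustment) and 1 higher in the latter. All 5 cholangiocyte markers tested were lower there as well, at 1.57 to 3.22 against 5.29 to 10.7 CPM. No gene of these 5 lists was at 0 in every library of a labelled group. LSEC markers were at 16996 to 20773 CPM in the libraries labelled control and 19424 to 25518 CPM in the others. The part of other cells in the levels of the chemokines was not tested here either.

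**Figure D3:**
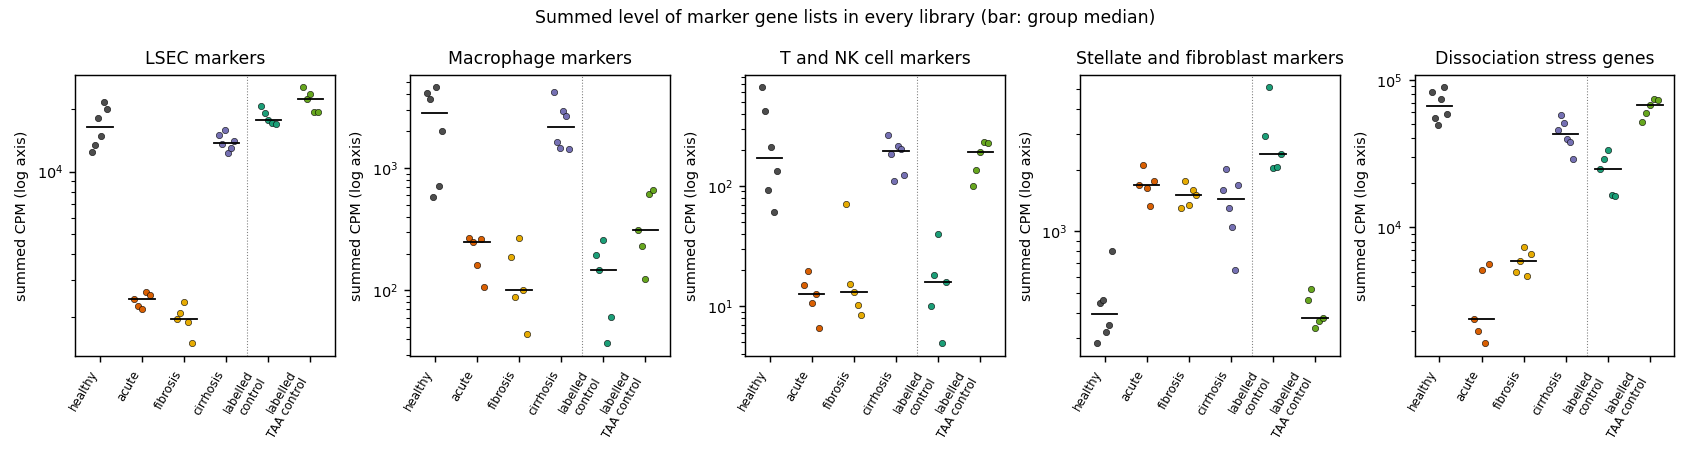
Summed level of 5 marker gene lists in every library, in CPM on a log axis, with a bar at the group median. Acute and fibrosis libraries are below the healthy libraries for LSEC markers (at most 2628 against at least 12465 CPM), macrophage markers (at most 267 against at least 581 CPM) and dissociation stress genes (at most 7322 against at least 49227 CPM).

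Genes that respond to tissue dissociation also differed between the groups. All 15 tested were lower than in healthy LSECs in acute injury, 14 of 15 in fibrosis and 8 of 15 in cirrhosis, and none was higher. Over all genes tested, 38.3%, 35.4% and 25.7% were lower at these stages. In cirrhosis 13 of 15 were higher than in fibrosis (34.5% of all genes), and 14 of 15 were higher in the libraries labelled TAA control (13.5%). The summed level of the 15 genes was 49227 to 88792 CPM in healthy, 1640 to 5637 in acute, 4680 to 7322 in fibrosis and 29204 to 57307 in cirrhosis libraries, and 16198 to 33355 against 51551 to 73655 CPM in the libraries labelled control and TAA control. Across both experiments, groups low in these genes were the groups high in Ccl2 and Ccl7. Within each experiment they were also the groups low in Ccl3, Ccl4, Ccl5 and Ccl24, whereas Cx3cl1 did not follow this order. Whether the preparation of the cells bears on the chemokines was not tested. Stellate cell and fibroblast markers summed to 282 to 798 CPM in healthy, 1329 to 2128 in acute, 1309 to 1759 in fibrosis and 645 to 2034 in cirrhosis libraries. In acute injury and fibrosis this sum was mostly Reln (1319 to 2119 and 1181 to 1582 CPM), so that it does not show the other markers of the list. Against healthy, 1 of the 8 tested (Reln) rose and 5 fell in acute injury, 4 rose and 3 fell in fibrosis, and 7 of 9 rose and none fell in cirrhosis. Over all genes tested, 35.8%, 35.8% and 28.8% rose at these stages. Hepatocyte markers fell in 10 of 10 genes in acute injury and 7 of 10 in fibrosis, from 1403 to 30153 CPM in healthy to 158 to 985 and 1466 to 5808 CPM.

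Receptors of these chemokines differed in how well they could be measured. Cx3cr1, the receptor of Cx3cl1, was at 2.75 to 17.7 CPM in healthy LSECs and at 0.0931 to 0.388 and 0.134 to 0.317 CPM in acute and fibrosis libraries, without overlap. Its log2 fold change was -4.78 ± 0.71 in acute injury (adjusted p = 5.99e-05) and -4.73 ± 0.69 in fibrosis (adjusted p = 5.77e-05). In cirrhosis it was at 2.95 to 12.1 CPM and was not called against healthy (0.12, 95% interval -0.92 to 1.16). In fibrosis the Cx3cl1 libraries, at 14.7 to 34.5 CPM, were thus not below the healthy range of the ligand, whereas all libraries were below the healthy range of the receptor. Ccr1 rose in acute injury (1.51 ± 0.58, adjusted p = 0.0301) and was not called in fibrosis or cirrhosis against healthy. Ccr6, the receptor of Ccl20, was at 0.279 to 2.83 CPM in healthy LSECs and at 0.0865 to 0.751 CPM in fibrosis (-1.92 ± 0.78, adjusted p = 0.0409), and 4 of the 5 acute libraries held no count. Ccr2 and Ccr3, which bind Ccl2 and Ccl24, did not pass the count filter in any comparison, and their highest levels in any library were 1.36 and 1.13 CPM.

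Atypical receptors take up chemokines without signalling for migration. Ackr2, which scavenges inflammatory CC chemokines, was at 3.10 to 22.2 CPM in healthy LSECs, at most 0.0465 CPM in acute and at most 0.119 CPM in fibrosis libraries, with 2 libraries of each of these groups at 0. It fell in both (adjusted p = 2.22e-06 and 1.30e-05). Ackr4, which scavenges CCL19 and CCL21, fell from 133 to 335 CPM to 2.14 to 9.49 CPM in acute injury (-5.74 ± 0.35, adjusted p = 3.16e-08) and 4.15 to 9.62 CPM in fibrosis (-5.00 ± 0.28, adjusted p = 2.65e-08). In cirrhosis neither was called against healthy, with differences of 0.39 (95% interval -0.40 to 1.18) for Ackr2 and 0.22 (-0.24 to 0.69) for Ackr4. In the libraries labelled TAA control Cx3cr1 was higher before adjustment only (2.04 ± 0.88, adjusted p = 0.0745), Ackr2 was lower (-1.86 ± 0.41, adjusted p = 0.00372) and Ackr4 was not called (0.08, 95% interval -0.37 to 0.53).

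**Figure D4:**
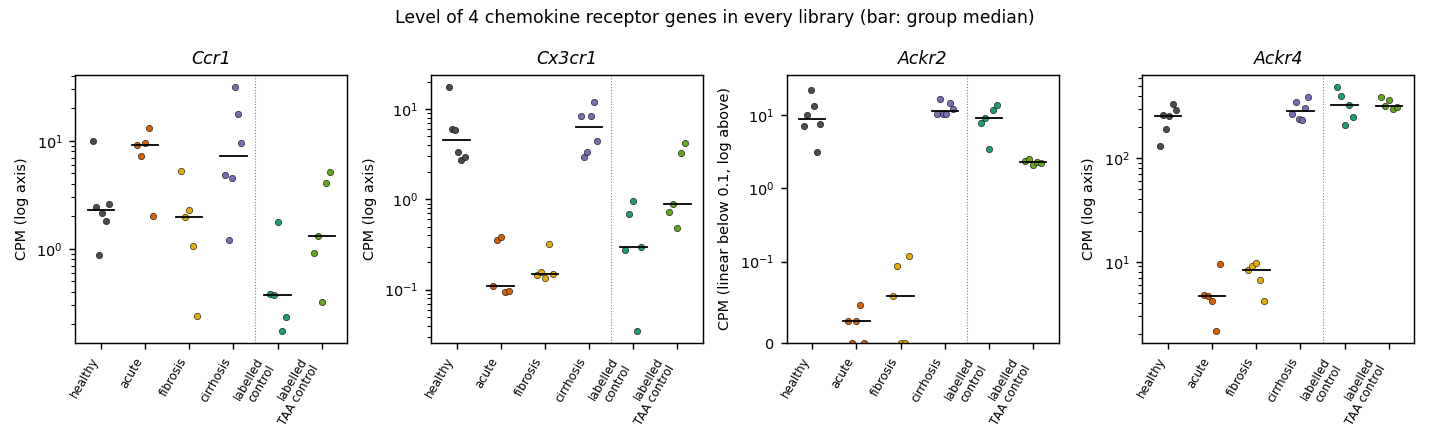
Level of Ccr1, Cx3cr1, Ackr2 and Ackr4 in every library, in CPM on a log axis (for Ackr2 linear below 0.1 CPM), with a bar at the group median. Ackr4 is at 133 to 335 CPM in healthy and 232 to 392 CPM in cirrhosis libraries and at most 9.62 CPM in acute and fibrosis libraries.

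The proteases that act on these chemokines changed in both directions. Adam10 and Adam17, which release CX3CL1 from the membrane, rose at all 3 stages against healthy, Adam10 by 1.72, 1.40 and 1.44 and Adam17 by 1.08, 0.97 and 0.73 on the log2 scale in acute injury, fibrosis and cirrhosis (adjusted p between 0.00115 and 0.0472). Dpp4, which trims the end of several chemokines, fell by 4.40 in acute injury and by 3.92 in fibrosis and was not called in cirrhosis. Of 4 inducing cytokines tested, Tnf fell from 28.1 to 119 CPM in healthy LSECs to at most 2.42 CPM in acute injury, with 2 libraries at 0, and to 2.05 to 14.2 CPM in fibrosis (adjusted p = 0.000126 and 2.90e-05). Il1a fell at both stages (-2.03 and -1.59), Il6 rose at all 3 (1.41, 2.10 and 4.17) and Il1b was not called against healthy at any stage. Over all genes tested, 35.8% rose and 38.3% fell in acute injury, 35.8% and 35.4% in fibrosis and 28.8% and 25.7% in cirrhosis. Of 12 genes of the NF-kappaB feedback circuit, 1 rose and 7 fell in acute injury, 1 rose and 6 fell in fibrosis and 2 rose and 3 fell in cirrhosis. Nfkb1, which encodes a subunit of the factor, was the one that rose at the first 2 stages (0.82 and 0.91), while the largest falls were those of Bcl3, an atypical IkappaB protein, and Tnfaip3, an inhibitor of the pathway, in acute injury (-3.28 and -2.50) and of Bcl3 and the inhibitor Nfkbie in fibrosis (-2.72 and -2.03). In cirrhosis Rel (0.84) and Nfkb1 (0.73, adjusted p = 0.0676) rose and Nfkbib (-0.92) and Bcl3 (-0.79) had the largest falls. The median log2 fold change of this list was -0.85 in acute injury, -0.61 in fibrosis and -0.21 in cirrhosis, beside -0.09, -0.03 and 0.07 over all genes tested.

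The other CC chemokines formed a list of 12 genes. In acute injury 1 of 7 tested rose and 3 fell, beside 35.8% and 38.3% of all genes. The same counts held in fibrosis, beside 35.8% and 35.4%. Ccl12, a further CCR2 ligand of rodents, rose from at most 0.190 CPM in healthy LSECs to 4.68 to 21.4 CPM in acute injury (6.71 ± 0.66, adjusted p = 1.82e-06) and 0.385 to 4.04 CPM in fibrosis (4.21 ± 0.73, adjusted p = 0.000237), and therefore moved in the direction of Ccl2 and Ccl7. Ccl1 and Ccl21 had the 2 largest falls of this list at both stages. In cirrhosis 2 of 8 rose and none fell, beside 28.8% and 25.7% of all genes. The 2 that rose were Ccl21 and Ccl19, the lymphoid ligands of CCR7, which went from 1.26 to 7.46 CPM to 536 to 2288 CPM (8.33 ± 0.53, adjusted p = 7.47e-06) and from 0.104 to 0.467 CPM to 2.70 to 6.95 CPM (4.26 ± 0.45, adjusted p = 6.71e-05). Both were lower in the libraries labelled TAA control than in those labelled control. There Ccl21 was at 1.92 to 5.32 against 443 to 2453 CPM (-8.14 ± 0.62, adjusted p = 1.27e-05). Ccl19 was at 0.0326 to 0.155 against 1.18 to 3.20 CPM (-4.24 ± 0.51, adjusted p = 0.000117). Ccl1 and, before adjustment only, Ccl6 were higher there.

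Over the 22 CCl4-model libraries, the genes most like each member were found by Pearson's r of log2 CPM among 11024 genes (11025 for Ccl20), as a description over libraries that share the 4 groups. Ccl2 was most like Csf3, Adam1a and Ccl7 (r = 0.97 each) and Ccl7 most like Plet1, Slamf7 and Hk2 (0.97 each). The genes most like Ccl3 included Ccl4 (0.93) and Ptpro (0.90), and Ccl4 was most like Cmklr1, Cd300a and Ptafr (0.94, 0.94 and 0.93). For Ccl5 the genes were Adamts14, Prf1 and Gzmm (0.97 each), for Ccl20 Cyp7b1, Cxcl6 and Tgfa (0.89, 0.89 and 0.88), and for Ccl24 Oit3, Tmem88 and Igfbp4 (0.99 each). Cx3cl1 was most like Trim47 (0.91), Ehd2 and Col1a1 (0.83 each). Among the members themselves, r was 0.97 between Ccl2 and Ccl7, 0.88 between Ccl7 and Ccl20 and -0.90 between Ccl7 and Ccl24, and Cx3cl1 had values between -0.17 and 0.34 with the other 7.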

How the data were processed

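RNA of rat LSECs was sequenced in 32 libraries. Per the labels and the study's methods, the authors trimmed reads with Trim Galore, used STAR to map strand-specific poly(A) reads (Rnor_6.0) and RSEM to estimate gene counts. The deposited values are RSEM expected counts, some of them fractional, neither normalized nor pooled. Expected counts were rounded, and groups of 2 were compared with limma-voom (limma 3.58.1, edgeR 4.0.16, R 4.3.3) after filterByExpr and TMM, without covariates. Totals of 25646531 to 46464289 counts per library set the precision of low genes such as Ccl20. CPM used TMM factors over all libraries, with a pseudocount of 0.5 on the log2 scale. Exact permutation tests were two-sided, with Benjamini-Hochberg adjustment over 56 tests. Figures were drawn with matplotlib 3.10.9.

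The members and lists were chosen with earlier results of these data known. Named genes were all members and receptors, Tnf and Il1b, the called genes with the 2 largest rises and falls of other lists, all genes of lists with 4 or fewer tested, and the 3 genes most like each member. Marker lists are given by counts and sums, and Timd4 and Reln were named after their values were seen. For 2 genes that this rule names, values are not reported here. The label "cirrhosis" of 12 to 14 weeks comes from the description of the series, since the labels of those libraries give no duration. Replicate numbers come from sample titles, which for some TAA control libraries differ from the numbers in their descriptions. Alternatives were adjusted p-values, edgeR's quasi-likelihood test, DESeq2 1.42.0, other normalizations and filters, library weights, 1 fit over the CCl4 groups, a replicate block and each library left out. Tests were tried on simulated data first. Promoter windows are from GRCr8 and no position in Rnor_6.0 is given, as no annotation of that assembly was used here. Ccl2, Ccl3, Ccl4 and Ccl5 promoters were not matched. The cBDL and human data were not analysed here.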

Additional observations from a re-analysis of the deposited data

Results flagged for a closer look

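In 3 of the 48 groups of libraries looked at (8 genes in 6 groups), 1 library lay farther from the rest than Dixon's 95% limit, where chance alone gives about 2.4. Healthy replicate 3 held 703 CPM of Ccl2, against 88.5 to 185 CPM in the other healthy libraries, and the acute and fibrosis libraries were still all above it. Acute replicate 8 held 25.1 CPM of Ccl24, against 6.69 to 9.28 CPM in the other acute libraries and far below the healthy ones. Replicate 15 of the libraries labelled TAA control held 0.155 CPM of Ccl20, which is 4 counts, against at most 0.0321 CPM in the others of its group.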

How the results depend on the processing

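The number of members called stayed within 1.5 times the main value under all alternatives run except in the comparison of fibrosis with acute injury, where it was 1 and became 2 with edgeR, 2 with DESeq2 and 3 with library weights. With 1 library left out it ranged from 1 to 3 there (2 without acute replicate 2, 3 without fibrosis replicate 15, 2 without fibrosis replicate 16 or 17), and from 7 to 8, 7 to 8 and 4 to 5 in acute injury, fibrosis and cirrhosis against healthy. Of 571 values of single members under other alternatives, 553 kept their side of the thresholds, 14 lost the call and 4 gained it, and of 575 with 1 library left out, 550 kept it, 19 lost it and 6 gained it. No called value changed sign in these fits. Calls lost were those of Ccl2 and Cx3cl1 in cirrhosis and of Cx3cl1 in fibrosis against healthy, of Ccl5 between cirrhosis and fibrosis, of Ccl20 between cirrhosis and acute injury and of Ccl3 in acute injury. With no count filter Ccl20 was called in acute injury (log2 fold change 4.75, adjusted p = 0.00142) and in cirrhosis (2.17, adjusted p = 0.0443) against healthy, and in 1 fit over the CCl4 groups it was called in acute injury (4.66, adjusted p = 0.000952) but not in cirrhosis (2.18, adjusted p = 0.132). The causes were not tested. Healthy, acute and cirrhosis libraries share replicate numbers but come from different rats. Same-number libraries correlated at -0.24 to 0.29 in their deviations, and the closest library of another number at 0.017 to 0.43. The numbers were therefore not used as pairs in the main fits, although so few libraries cannot show that no preparation was shared. With the replicate block, 7, 5 and 8 members were called in acute injury and cirrhosis against healthy and in cirrhosis against acute injury, and without the block on the same libraries 7, 5 and 7. Low counts limit Ccl20, Ccr2, Ccr3 and Ccr6.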
